A study of Mus musculus with 14 samples.

Results

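The genes described here encode the surface molecules through which a B cell can help or restrain the T cells it meets: the costimulatory ligands Cd80, Cd86 and Icosl, the receptor Cd40, the checkpoint ligands Cd274 (PD-L1) and Pdcd1lg2 (PD-L2), the inhibitory receptor Ctla4, and the glycoproteins Cd200 and Cd24a. They were measured in B-1a cells of the mouse peritoneal cavity, innate-like B lymphocytes that carry CD5 and make natural antibody. All array probes that are no controls and carry one of these 9 gene names were taken, which gave 12 probes of the 55681 on the array (9 of 34821 gene names). Icosl, Cd80 and Pdcd1lg2 each had a pair of probes. Cells of mice labelled as Bmi1 knockout (KO) were compared with cells of wild-type (WT) mice. Bmi1 belongs to the Polycomb machinery that keeps chosen genes silent. There were 7 one-colour arrays per genotype from 2 sets of experiments, read here from the numbering style of the sample titles, and set 1 holds 3 KO and 3 WT arrays, set 2 4 of each. The labels name no strain, age, sex or treatment, do not say whether the knockout was made in all tissues or in B cells only, and do not say whether samples came from separate or pooled animals. P-values therefore rest on the spread among the samples at hand, and that spread may be technical.

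A T cell that recognises antigen also reads a costimulatory signal. CD80 and CD86 (the B7 molecules) bind CD28 on the T cell and start that signal, or bind CTLA-4, which holds it back, while ICOS ligand binds ICOS and sustains follicular helper T cells. CD40 on the B cell receives CD40 ligand from the T cell and drives activation, and PD-L1 and PD-L2 engage the inhibitory receptor PD-1. B-1a cells are known for expressing PD-L2 and CTLA-4 without stimulation, which most B-2 cells do not. CD200 is an inhibitory ligand of myeloid cells, and CD24 is a small glycosyl-phosphatidylinositol-anchored protein of B cells that binds Siglec-10 or, in mice, Siglec-G.

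What an array reads of a gene is set by its 60-base probe, so the stretches on which the results turn are given here, each limited to 30 bases and taken from the scanner output. In 3 of the 12 probes, those of Icosl (the first), Cd40 and Cd86, the probe holds AATAAA, the canonical polyadenylation signal in capitals. The hexamer stands in 10.1% of all 55681 probes, and its reverse complement in 0 of the 12 and in 3.74% of all. The Pdcd1lg2 probes are shown because they are almost the same sequence, and capitals mark the bases at which they differ. The Cd80 probes are shown because they read separate stretches of the gene, and nothing is marked in them.
Icosl, chr10:77542211-77542270, bases 27 to 56: acctaacaagggAATAAAtgtaagatgtgc
Cd40, chr2:164897085-164897144, bases 23 to 52: atttagttcttgAATAAAagacacactcaa
Cd86, chr16:36603961-36604020, minus strand, bases 28 to 57: agagtggatttcAATAAAgttttcttgaat
Pdcd1lg2, chr19:29545473-29545532, bases 28 to 57: tggaagcatttaagcaacacgtTaagtAcc
Pdcd1lg2, chr19:29545470-29545529, bases 31 to 60: tggaagcatttaagcaacacgtCaagtGcc
Cd80, chr16:38486772-38486831, bases 1 to 30: aaaggagaggtgcctagtcttactgcaact
Cd80, chr16:38479343-38479402, bases 1 to 30: ttcaatacgactcgcaaccacaccattaag

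Positions are those of the files, on build mm9, and strands are plus where none is given. The Pdcd1lg2 probes are offset by 3 bases, share 57, and differ by C53T and G58A, counted from the 5′ end of the probe at 29545470. The other probes lie at chr10:77545941-77546001 (the second Icosl probe, which the files describe as the GL50-B splice form), chr19:29462363-29462422 (Cd274), chr1:60971801-60971860 (Ctla4), chr16:45382387-45382446 on the minus strand (Cd200) and chr10:43303706-43303765 (Cd24a). Whether a probe lies in an exon, an intron or an untranslated region was not analysed here, since no mm9 annotation was used. Of the 12 probes, 10 carried an accession that matched a RefSeq gene, each under the same symbol as the array gives. In the order of protein-coding genes in RefSeq (GRCm38.p6), Cd274 and Pdcd1lg2 are neighbours with 0 genes between them, and the Pdcd1lg2 probe at 29545470 starts 83107 bases after that of Cd274. Ctla4 lies between Cd28 and Icos with 0 genes between it and either, and chromosome 16 carries Cd80, Cd86 and Cd200, with 24 genes between Cd80 and Cd86 and 35 between Cd80 and Cd200.

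The arrays differed in brightness, and the KO arrays more so. The share of probes marked as well above background ran from 20.6% to 56.6% on KO arrays (median 36.8%) and from 43.5% to 63.3% on WT arrays (median 51.6%). The 4 arrays under 40%, all KO (replicate 4 of set 1 and replicates 1, 2 and 3 of set 2), are called dim below, and values without them come from an alternative chosen after seeing the data. Levels are log2 signal minus the array's own 75th percentile, which lay between 3.63 and 8.22 on KO and between 7.09 and 7.99 on WT arrays. It was lowest on KO set 2 replicate 2, the array with the fewest probes above background. On this scale neither Bmi1 probe read lower in the samples labelled KO, with KO minus WT differences of 3.74 and 1.09. The first was above background on 5 KO and 3 WT arrays, so the size of its difference is not measured. When arrays were scaled to the probes that all of them detected, the differences were 2.41 and -0.24. The labels do not say which part of the gene was deleted, so these probes do not check the genotype. All directions below are therefore those of the samples as labelled. The B cell genes Ms4a1, Cd79a, Cd79b, Pax5, Blk and Cd22 were above background on all 14 arrays, and Ighm on all but 1 WT array. Of 8 B-1a genes, which include the members Ctla4 and Pdcd1lg2, 3 to 8 were above background on KO and 6 to 8 on WT arrays. Summed levels here and below are the log2 of summed unlogged levels, so the brightest genes set them. That of the B-1a genes had a median of 9.81 in KO and 9.75 in WT. Itgam alone had medians of 9.71 and 9.65, so this sum does not compare the other genes. Among the B-1a genes, Cd5, Bhlhe41 and Plscr1 were above background on 3, 4 and 4 KO arrays and on 6, 7 and 7 WT arrays. Spn and Zbtb32 were so on 5 KO arrays each and on 7 and 6 WT arrays, and Itgam on all 14. On Bhlhe41 and on Plscr1, 6 KO arrays lay below every WT array. Bulk RNA does not tell fewer cells of a type from less RNA per cell. Macrophages and dendritic cells also carry several of these molecules. Of 9 macrophage genes, 2 to 8 were above background on KO and 4 to 8 on WT arrays, and their summed level ran from 3.17 to 10.75 on KO and from 3.45 to 7.72 on WT arrays, with the highest values on KO set 2 replicates 2 (10.75) and 1 (8.29). Of 6 dendritic cell genes, Itgax and Batf3 were above background on 0 of 14 arrays, Zbtb46 on 4 KO and 4 WT arrays, Flt3 on 4 and 7, Ccr7 on 6 and 6, and Siglech on all 14, and their summed level ran from 5.76 to 9.86 on KO and from 5.52 to 6.95 on WT arrays. The part of these cells in the results below was not tested.

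Most of the molecules were read in cells of both genotypes, and a few were at the limit of detection. The probes of Cd80, Cd274, Pdcd1lg2, Ctla4, Cd24a and Cd40 were above background on at least 4 arrays of each genotype. Icosl, Cd86 and Cd200 were read on few arrays. The Cd80 probe at 38486772, Cd274 and Cd24a were above background on all 14 arrays, which makes 3 of 12 probes, beside 12.7% of all probes. Between 5 and 11 of the 12 probes were above background on a KO array and between 5 and 9 on a WT array, with a median of 9 for both. KO set 1 replicates 2 and 3, with 10 and 11, lay above all WT arrays, whereas the dim KO set 2 replicate 2 and WT set 2 replicate 2 had the fewest, 5 each.

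**Figure D1:**
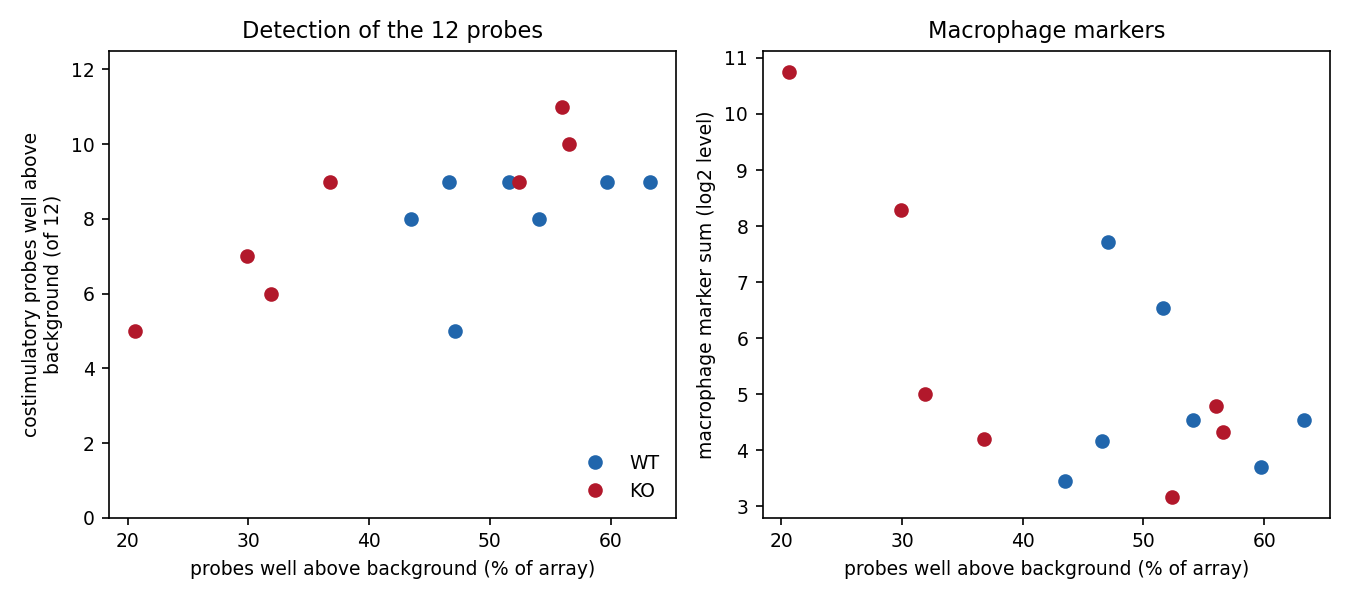
Left, the number of costimulatory and checkpoint probes (of 12) well above background on each array, against the percent of all probes so marked. Right, the log2 of the summed unlogged levels of 9 macrophage genes against the same percent. Each point is 1 array, and the array with 20.6% of probes above background has 5 of the 12 probes and the highest macrophage sum, 10.75.

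In the fit across all probes, none of the molecules differed between KO and WT at an adjusted p under 0.05. The fit was limma with the set as covariate, it tested the 29679 probes above background on at least 4 of 7 arrays of either genotype, and Benjamini-Hochberg adjustment ran over all of them. It held 9 of the 12 probes and 7 of the 9 genes, and it called 0 of these 9 probes, beside 9 of all 29679 probes (0.0303%, of which 0.00337% higher and 0.027% lower in KO). At an unadjusted p under 0.05 it gave 2 probes higher in KO, Icosl (the first probe) and Cd24a, and 0 lower. Icosl was in the fit only through the KO group, where it is high. The filter itself thus favoured a difference, and the count of 2 supports nothing. Of all probes tested, 8.18% were higher and 5.38% lower at that level. On each of the 12 probes the genotypes overlapped, whereas 0.249% of all tested probes had no overlap. The median difference of the 9 tested probes was 0.39, beside 0.32 over all tested probes, and 5 of the 9 lay above that median. The spread between arrays was larger in KO than in WT for 12 of 12 probes, and this was so for 84.8% of all tested probes.

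**Figure D2:**
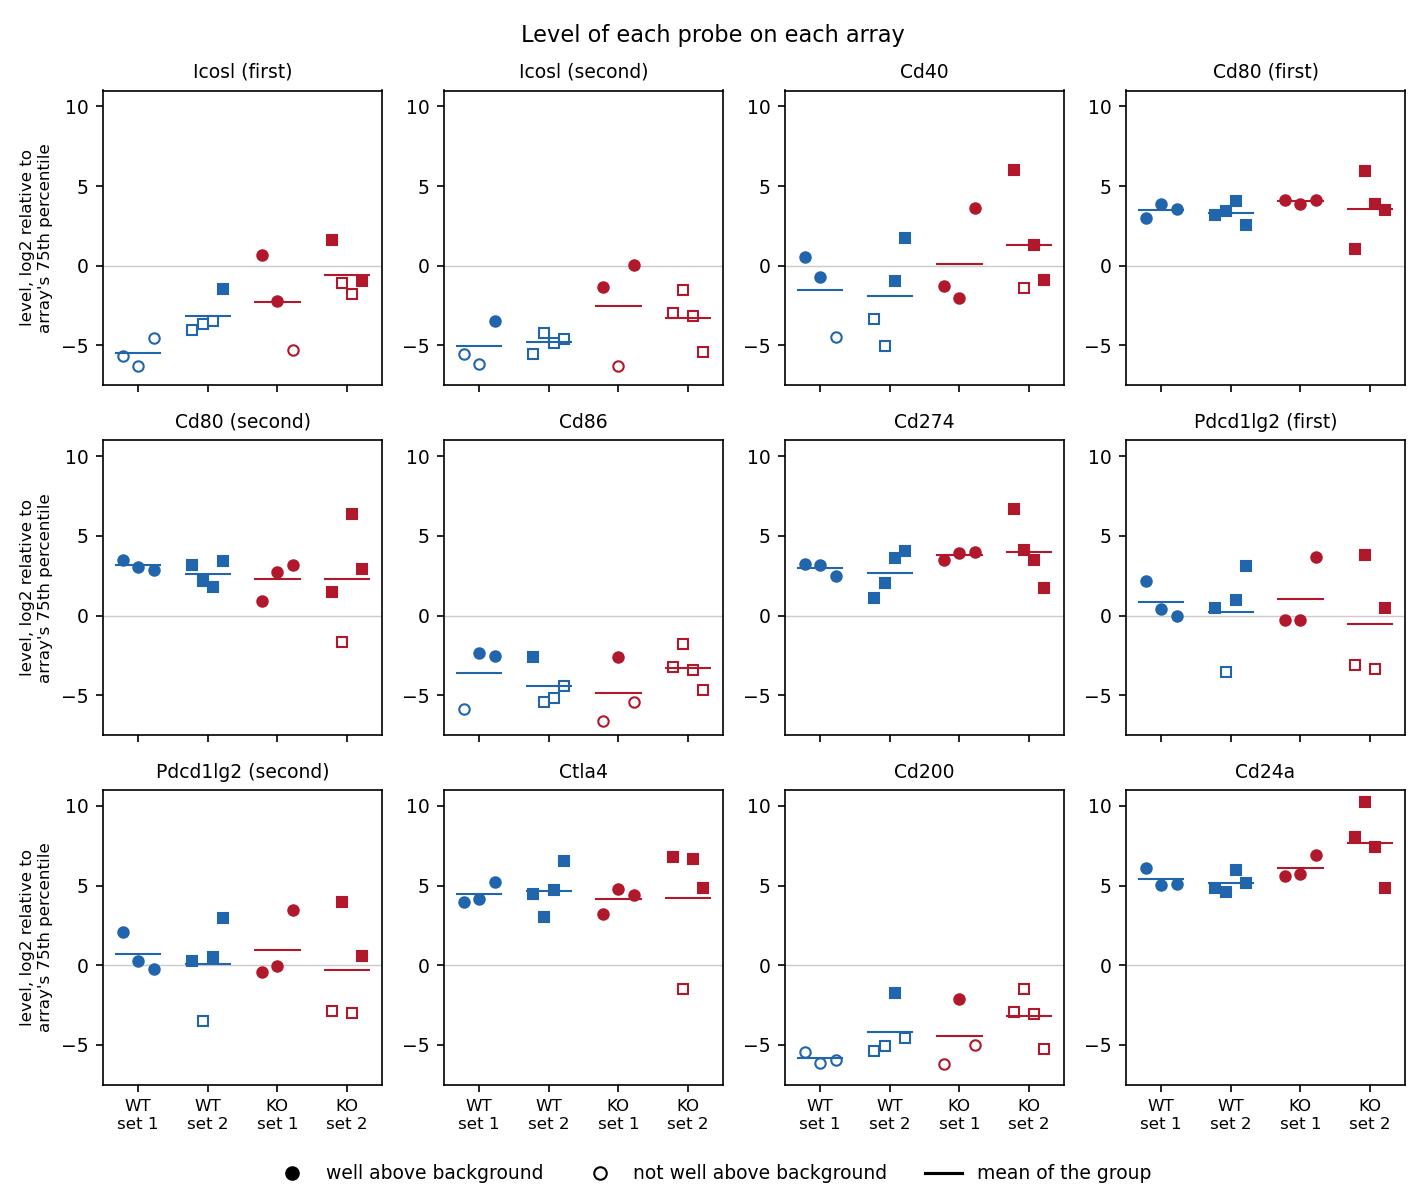
Level of each of the 12 probes on each of the 14 arrays (vertical axis, log2 signal relative to the array's 75th percentile), by genotype and set; circles are set 1 and squares set 2, filled where the probe was well above background, and lines are group means. Cd24a is above background on every array, with its highest values, 8.06 and 10.26, on KO arrays of set 2, and most Icosl, Cd86 and Cd200 points are open.

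Of the ligands that start costimulation, Cd80 was read at similar levels in both genotypes. On the first Cd80 probe, at 38486772, KO gave 4.15, 3.85 and 4.14 in set 1, then 1.04, 5.96, 3.86 and 3.48 in set 2. For WT the set 1 levels were 3.02, 3.87 and 3.54, those of set 2 3.20, 3.45, 4.08 and 2.58. The WT arrays and the KO arrays of set 1 lay close together, and the dim KO set 2 replicates 1 and 2 were the lowest and the highest of all 14. KO averaged 3.78 ± 1.45 (SD, n = 7) and WT 3.39 ± 0.51 (SD, n = 7), which differ by 0.39 (SE 0.66, 95% interval -1.02 to 1.80, limma adjusted p = 0.79). The second Cd80 probe, at 38479343, was above background on 6 KO and 7 WT arrays. It ran from -1.69 to 6.35 with a median of 2.76 in KO, and from 1.76 to 3.50 with a median of 3.07 in WT. Its difference was -0.58 (SE 0.93, 95% interval -2.56 to 1.39, limma adjusted p = 0.778), so the probes of this gene differed in sign, each within an interval that holds 0. Both signs rested on KO set 2 replicate 2, without which the differences were -0.02 and 0.10.

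The pairs of probes can be compared by how steady their difference was from array to array. For the Pdcd1lg2 probes, which share 57 bases, the SD of the difference was 0.21 in KO and 0.15 in WT. For the Cd80 probes, which share no stretch, it was 3.21 in KO and 1.09 in WT, and the KO value includes KO set 2 replicate 2, on which the second probe was not above background. Over the 3684 gene names with 2 tested probes the median SD was 2.24 in KO and 1.33 in WT. The Icosl probes were above background on too few arrays for this comparison.

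**Figure D3:**
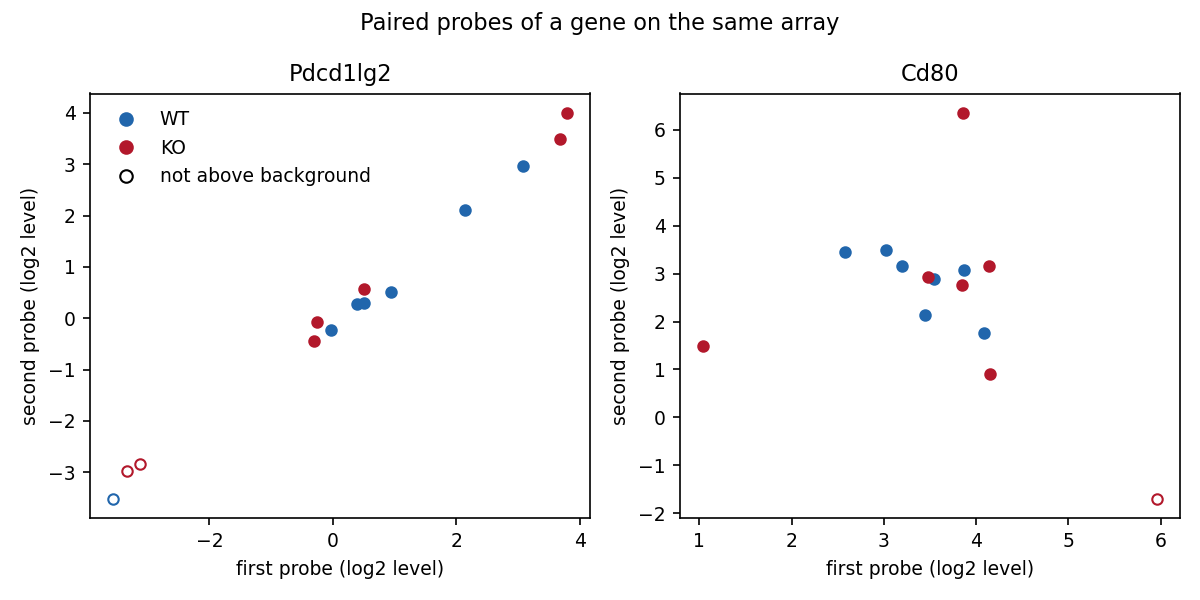
Log2 level of the second probe against that of the first on each array for Pdcd1lg2 (first at 29545473, second at 29545470) and Cd80 (first at 38486772, second at 38479343); each point is 1 array, open where either probe was not well above background. The Pdcd1lg2 points lie close to a straight line, and the Cd80 point with the lowest second probe, -1.69, is KO set 2 replicate 2.

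Cd86, the other B7 ligand of CD28 and CTLA-4, was above background on 1 KO array and 3 WT arrays (of 7 each) and did not enter the fit. Its measured values were -2.60 on KO set 1 replicate 3, and -2.38, -2.54 and -2.62 on WT set 1 replicates 3 and 4 and WT set 2 replicate 1. On the other 10 arrays it was not above background. KO averaged -3.97 ± 1.69 (SD, n = 7) and WT -4.07 ± 1.51 (SD, n = 7), which differ by 0.10 (exact permutation of genotype within sets, two-sided, p = 0.919).

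Icosl, which encodes the ligand of ICOS, was read on more KO than WT arrays. Its first probe, at 77542211, was above background on 4 KO arrays and 1 WT array (of 7 each), so it entered the fit only through the KO group. It read 0.65 and -2.22 on KO set 1 replicates 2 and 3 and 1.63 and -0.97 on KO set 2 replicates 1 and 4, where it was above background, and -5.27, -1.11 and -1.77 on the other KO arrays. For WT the set 1 levels were -5.69, -6.27 and -4.53, those of set 2 -4.05, -3.68, -3.49 and -1.46, of which only the last was above background. KO arrays were thus mostly the higher ones, and 4 of 7 lay above every WT array. Of these, KO set 2 replicate 2 (-1.11) was not above background. The other KO arrays, set 1 replicates 3 and 4 and set 2 replicate 3, lay within the WT range. Background readings, however, lay higher on the dim KO arrays of set 2 than on the WT arrays of set 1. Cd200, above background on none of these, read -2.91, -1.48 and -3.06 on the former and -5.45, -6.11 and -5.93 on the latter. Where the Icosl order rests on background readings it is thus not measured. KO averaged -1.29 ± 2.21 (SD, n = 7) and WT -4.17 ± 1.58 (SD, n = 7). The difference was 2.87 (limma SE 0.85, unadjusted p = 0.00373, adjusted p = 0.256, and exact permutation within sets, two-sided, unadjusted p = 0.00857). Of the WT values, 6 of 7 are background readings, and so are -5.27, -1.11 and -1.77 in KO. The size of the difference is therefore not measured and these values are given as a description. That exact test, run on each of the 12 probes, can give no p below 0.00143.

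The Icosl difference had the same sign in both sets, 3.22 in set 1 and 2.62 in set 2, and was 3.21 within slide 2, which held the 4 KO and 2 of the WT arrays of set 2. Group means in descending order were -0.55 for KO set 2, -2.28 for KO set 1, -3.17 for WT set 2 and -5.50 for WT set 1. Neighbours in that order overlapped, apart from the WT groups of set 2 and set 1, whose values did not. All of these means include background readings, so their order is not measured. Without the 4 dim KO arrays the difference was 3.71 (limma adjusted p = 0.495). Without KO set 1 replicate 2 or 3, or KO set 2 replicate 1 or 4, the probe was no longer above background on enough arrays to be tested. The second Icosl probe was above background on 2 KO arrays (-1.34 and 0.03, set 1 replicates 2 and 4) and on 1 WT array (-3.45, set 1 replicate 4). Its difference was 1.95 (exact permutation within sets, two-sided, unadjusted p = 0.0729). KO set 1 replicate 4, the highest KO array on the second probe, was the lowest on the first. Icos, the receptor of this ligand, was above background on 0 to 2 arrays of a genotype on each of its 3 probes.

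Cd40, the receptor for T cell help, was above background on 6 KO arrays and 4 WT arrays (of 7 each) and varied widely between arrays of both genotypes. KO gave -1.29, -2.04 and 3.65 in set 1, then 6.02, -1.38, 1.32 and -0.87 in set 2. WT gave 0.52, -0.73 and -4.45 in set 1, then -3.36, -5.01, -0.98 and 1.75 in set 2. KO set 2 replicate 1 and KO set 1 replicate 4, both dim, lay above every WT array, and the other 5 KO arrays lay within the WT range. KO averaged 0.77 ± 3.04 (SD, n = 7) and WT -1.75 ± 2.57 (SD, n = 7), which differ by 2.52 (SE 1.36, 95% interval -0.35 to 5.39, limma adjusted p = 0.387). It was 1.66 in set 1 and 3.17 in set 2, and 0.34 without the 4 dim KO arrays. Cd40lg, its ligand, was above background on 2 arrays of each genotype.

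The checkpoint ligand Cd274 was above background on all 14 arrays. KO levels were 3.48, 3.94 and 3.99 in set 1, then 6.69, 4.10, 3.51 and 1.70 in set 2. WT levels were 3.26, 3.17 and 2.47 in set 1, then 1.09, 2.04, 3.58 and 4.04 in set 2. In set 1 each KO array lay above each WT array, and in set 2 the genotypes overlapped over most of their range. KO averaged 3.92 ± 1.47 (SD, n = 7) and WT 2.81 ± 1.01 (SD, n = 7). The difference of 1.11 (SE 0.73, 95% interval -0.43 to 2.65) did not pass the test (limma adjusted p = 0.453), and came to 0.05 when the 4 dim KO arrays were left out. WT arrays of set 2 alone ran from 1.09 to 4.04, so replicate spread within a group exceeded the difference between genotypes.

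Pdcd1lg2, the PD-L2 gene next to Cd274, was above background on 5 KO arrays and 6 WT arrays (of 7 each) on both probes. On the probe at 29545473, KO gave -0.31, -0.26 and 3.69 in set 1, then -3.12, 3.80, -3.33 and 0.50 in set 2. WT gave 2.15, 0.39 and -0.03 in set 1, then 0.50, -3.56, 0.95 and 3.09 in set 2. Both genotypes thus spanned a range of about the same low and high ends, and on the same arrays Cd274 followed another order: KO set 2 replicate 1 had the highest Cd274 level, 6.69, and a Pdcd1lg2 level of -3.12. KO averaged 0.14 ± 2.86 (SD, n = 7) and WT 0.50 ± 2.10 (SD, n = 7). The difference was -0.36 (SE 1.20, 95% interval -2.90 to 2.18, limma adjusted p = 0.898), and -0.10 (SE 1.17, 95% interval -2.57 to 2.37, limma adjusted p = 0.973) on the probe at 29545470. On the scale of replicate spread the genotypes could not be told apart, though the intervals also leave room for differences of more than 2 log2 units either way. Pdcd1, the gene of their receptor PD-1, was above background on 0 KO arrays and 1 WT array.

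Ctla4, which encodes the receptor that competes with CD28 for the B7 ligands, was above background on 6 of 7 KO and all 7 WT arrays. KO levels were 3.23, 4.76 and 4.44 in set 1, then 6.79, -1.50, 6.66 and 4.85 in set 2. WT levels were 4.00, 4.19 and 5.21 in set 1, then 4.47, 3.06, 4.70 and 6.52 in set 2. All but 1 of the 14 arrays lay between 3.06 and 6.79, and the exception, -1.50 and not above background, was KO set 2 replicate 2. KO averaged 4.18 ± 2.80 (SD, n = 7) and WT 4.59 ± 1.08 (SD, n = 7), which differ by -0.42 (SE 1.07, 95% interval -2.67 to 1.84, limma adjusted p = 0.865). Without that array the sign turned and the difference was 0.60.

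Cd24a, a B cell surface glycoprotein gene, was above background on all 14 arrays and was the other probe with an unadjusted p under 0.05. KO levels were 5.60, 5.76 and 6.95 in set 1, then 8.06, 10.26, 7.44 and 4.85 in set 2. WT levels were 6.13, 5.01 and 5.11 in set 1, then 4.88, 4.58, 5.96 and 5.14 in set 2. WT arrays lay close together, 4 KO arrays lay above all of them, and these 4 were the dim arrays. KO averaged 6.99 ± 1.83 (SD, n = 7) and WT 5.26 ± 0.57 (SD, n = 7), which differ by 1.73 (SE 0.75, 95% interval 0.15 to 3.31). The limma p was 0.034 unadjusted and 0.362 adjusted, and the exact permutation test within sets gave an unadjusted two-sided p of 0.0329. Group means in descending order were 7.65 for KO set 2, 6.10 for KO set 1, 5.42 for WT set 1 and 5.14 for WT set 2, and neighbouring groups overlapped. Without the 4 dim KO arrays the difference was 0.04 (SE 0.49, limma adjusted p = 1). Siglecg, which encodes the receptor that binds CD24, was above background on all 14 arrays on both of its probes.

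Cd200, the ligand through which cells restrain myeloid cells, was near background. It was above background on KO set 1 replicate 3 at -2.09 and on WT set 2 replicate 3 at -1.73, and on no other array. KO averaged -3.72 ± 1.78 (SD, n = 7) and WT -4.88 ± 1.49 (SD, n = 7), which differ by 1.16 that comes from arrays on which it was not measured (exact permutation within sets, two-sided, unadjusted p = 0.186). Its receptor genes Cd200r1 and Cd200r4 were above background on 1 of 7 KO arrays each and on 4 and 1 of 7 WT arrays.

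**Figure D4:**
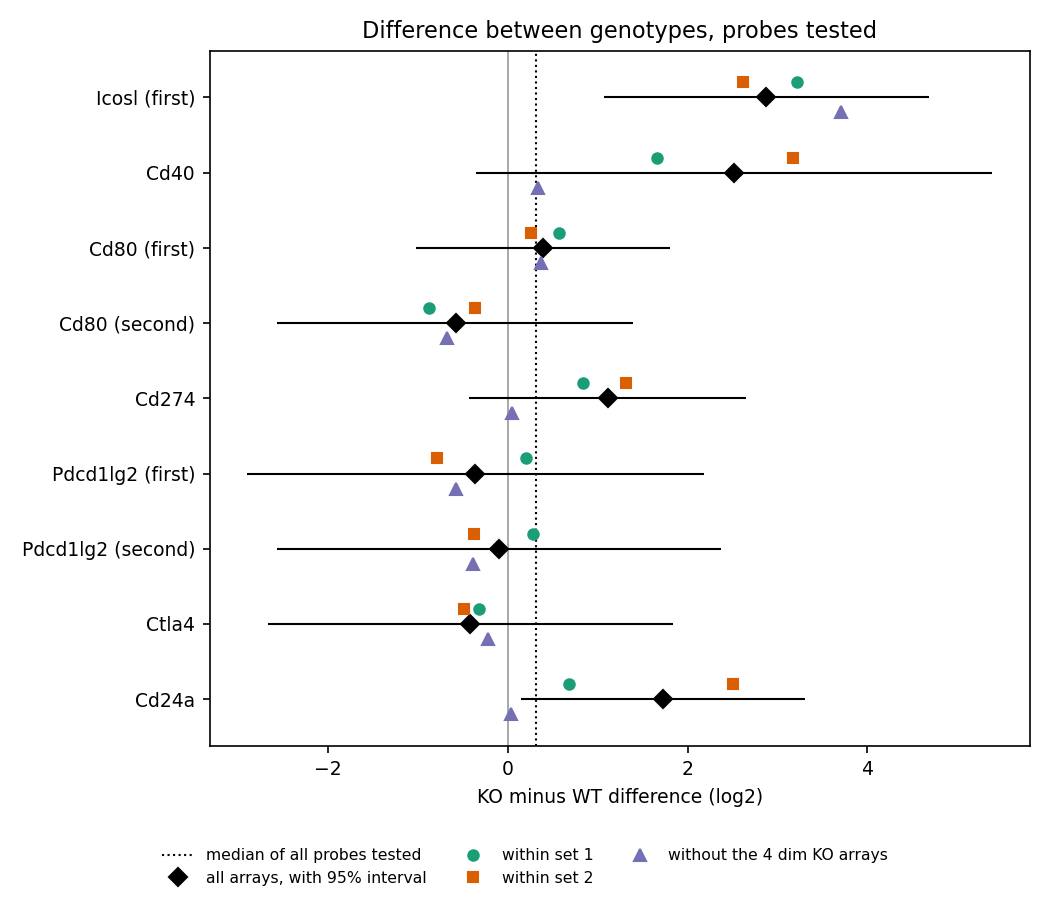
KO minus WT difference (log2, horizontal axis) of the 9 tested probes over all 14 arrays with its 95% interval, within set 1, within set 2 and without the 4 dim KO arrays; the dotted line is the median of all tested probes, 0.32. The interval of Cd24a leaves out 0, as does that of Icosl (first probe), which was above background on 1 WT array only. Without the dim arrays Cd40, Cd274 and Cd24a lie at 0.34, 0.05 and 0.04 while Icosl lies at 3.71. Pdcd1lg2 first and second are the probes at 29545473 and 29545470.

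Both sets of experiments gave the same sign for 7 of the 9 tested probes, and the pair of Pdcd1lg2 probes was positive in set 1 and negative in set 2. The same count was not taken over all tested probes, so this one is only a description. Within set 1 the limma fit called 0 of the 9 at an adjusted p under 0.05 (0.0236% of all tested probes), and only Icosl had an unadjusted p under 0.05 (0.0291; 7.8% of all). Within set 2 the limma fit also called 0 (0.0135% of all), and its unadjusted values under 0.05 were those of Icosl (0.0389) and Cd24a (0.0201), beside 13.2% of all. Icosl was in the fit only through the KO group, so the filter favoured a difference. Its values within the sets support nothing. The Cd24a difference was 0.68 in set 1 and 2.51 in set 2. A test of whether the difference depended on the set gave its smallest unadjusted p, 0.234, for Cd24a, so 0 of the 9 passed even the unadjusted level for such a dependence, beside 5.37% of all tested probes (0% adjusted).

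The differences moved with the way of scaling. Taking the 75th percentile over only those probes that every array detected (scaling to detected probes) moved the median difference of all tested probes from 0.32 to -1.02, quantile normalization moved it to -0.17, normexp background correction to -0.01, and the deposited values gave -0.16. The share of all probes with an unadjusted p under 0.05 was then 0.721% higher and 19.9% lower with scaling to detected probes, in place of 8.18% and 5.38%. Cd40 and Cd24a lay above 0 and above the all-probe median under all 5 ways of scaling, and so did both Icosl probes, whose WT values are nearly all at background. The first Icosl difference ran from 0.88 to 2.87, that of Cd40 from 0.96 to 2.52 and that of Cd24a from 0.39 to 1.73. Icosl kept an unadjusted p under 0.05 with quantile normalization (0.00687), normexp (0.0285) and the deposited values (0.00738), and did not with scaling to detected probes (0.164). The filter, which it passed only through the KO group, was the same in all of these and favoured a difference. Cd24a had none under any of these (0.147 to 0.339). The second Cd80 probe, both Pdcd1lg2 probes and Ctla4 lay below 0 and below the all-probe median under all 5, Ctla4 between -1.75 and -0.42. Cd274 turned to -0.23 with scaling to detected probes, and the first Cd80 probe was negative under all 4 alternatives, between -0.95 and -0.61.

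**Figure D5:**
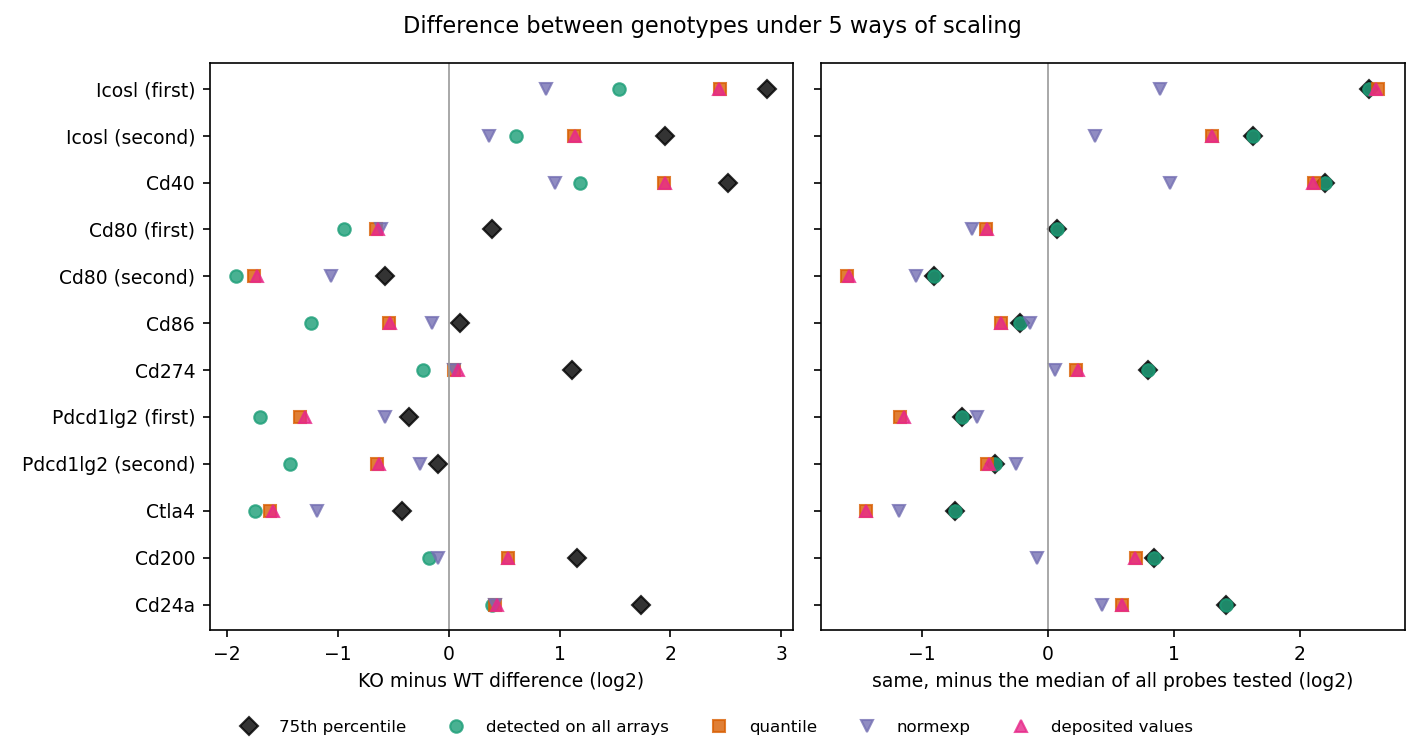
KO minus WT difference (log2) of the 12 probes under 5 ways of scaling, as such (left) and after taking off the median of all tested probes under the same scaling (right). Icosl, Cd40 and Cd24a lie right of 0 in both panels under every scaling and Ctla4 and both Pdcd1lg2 probes left of it, while the first Cd80 probe lies on either side. Pdcd1lg2 first and second are the probes at 29545473 and 29545470.

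Genes that work with these molecules were taken from 8 lists with 159 names, of which 144 were on the array and 115 were tested, each by its brightest probe. For these genes the other scalings are scaling to detected probes, quantile normalization and normexp, and the deposited values were not used. None passed an adjusted p under 0.05 (limma, 0 of 115), beside 5 of all 20407 genes (0.0245%). At an unadjusted p under 0.05, 11 of the 115 were higher in KO and 6 lower, beside 10.1% and 4.23% of all genes. Of those called so, Tigit, Cd27 and Slamf7 (lower) and Tnfaip3 (higher) were above background on fewer than 4 arrays of the dimmer genotype. They entered the fit only through the other genotype, so the filter itself favoured a difference, and their sizes are not measured. Of the receptors and partners, 4 of 9 were tested and 0 passed even the unadjusted level, with a median difference 1.67 below that of all genes, which was 0.47. The lowest of their p-values belonged to Rgmb, a PD-L2 binding protein, with a difference of -1.85 (SE 0.90, adjusted p = 0.348), followed by Cd200r1 at -1.31 and Cd28 at -1.09. These 3 were above background on 2, 1 and 3 KO arrays and on 6, 4 and 5 WT arrays. They entered the fit only through the WT group, so the filter favoured a lower KO level and their sizes are likewise not measured. The median of the 4 tested partners rests mostly on them and supports nothing. Siglecg differed by 0.34 (SE 0.58, adjusted p = 0.778) on its brighter probe, and by -0.99 to -0.92 with scaling to detected probes, quantile normalization and normexp. Its other probe averaged 3.02 in KO and 3.41 in WT, so the probes of this gene differed in direction.

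Among 12 tested genes of the other B7 and butyrophilin families and related checkpoints, 1 was higher and 1 lower at the unadjusted level. The lower one was Tigit, an inhibitory receptor that competes for the nectin family ligand CD155. It was above background on 2 of 7 KO and all 7 WT arrays. It ran from -6.15 to 0.56 with a median of -1.77 in KO and from 0.63 to 3.01 with a median of 1.71 in WT. Each KO array thus lay below each WT array, while 0.249% of all tested probes had no overlap. Most of the KO values are background readings, and Tigit entered the fit only through the WT group. The filter thus favoured a difference, and the values that follow are a description. Its difference was -4.07 (SE 0.88), with a limma p of 0.000281 unadjusted and 0.204 adjusted, and it lay between -5.41 and -2.45 under the other scalings. T cells also express Tigit. Of 9 T cell genes, 3 to 7 were above background on KO and 5 to 8 on WT arrays, with a summed level of 2.11 to 4.84 on KO and 1.78 to 3.34 on WT arrays, and their part in this result was not tested. The higher gene was Cd47, the ligand that restrains phagocytosis, at 1.77 (SE 0.63, adjusted p = 0.328) and at 0.42 to 0.43 under the other scalings. Btn1a1 came next, with a difference of 0.98 that turned to between -0.35 and -0.14 under them.

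Of 7 tested members of the TNF family of costimulators, 0 were higher and 2 lower at the unadjusted level. These were Tnfrsf8 (CD30), with a difference of -2.25 (SE 0.80, adjusted p = 0.327), and Cd27, a receptor of the costimulator CD70, above background on 2 KO and 6 WT arrays, with -1.98 (SE 0.77, adjusted p = 0.344). Both stayed negative under the other scalings. Tnfrsf9 (4-1BB) differed by 1.07 and turned to between -0.27 and -0.23 under them. In the CD2 and SLAM adhesion families, 2 of 13 tested genes were higher, the adhesion molecules Icam2 (1.99) and Cd2 (1.45), and 1 was lower, Slamf7 (-2.20, above background on 3 KO and 7 WT arrays). Icam2 and Cd2 lay between 0.11 and 1.10 under the other scalings.

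Downstream of CD40, 24 of 24 genes were tested, 1 was higher and 0 lower at the unadjusted level, and the median difference lay 0.17 below that of all genes. The higher gene was Tnfaip3 (A20), which ends NF-kB signalling, with 2.65 (SE 0.99, adjusted p = 0.339), above background on 5 KO arrays and 2 WT arrays (of 7 each). Traf5, an adaptor of CD40 above background on 3 KO and 7 WT arrays, differed by -1.99 and Nfkbie, an NF-kB inhibitor, by 1.43, neither with an unadjusted p under 0.05. Of 14 tested regulators of CD80, CD86, PD-L1 and CTLA-4 protein, 2 were higher, Ap2m1 (1.94) and Ap1m1 (1.82), subunits of clathrin adaptors that carry CTLA-4, and 1 was lower, Lrba. Under the other scalings Ap2m1 lay between 0.61 and 1.28 and Ap1m1 between 0.49 and 1.29. Lrba keeps CTLA-4 from lysosomal breakdown. Its difference was -2.19 (SE 0.93, adjusted p = 0.348), it was above background on 4 KO arrays and 7 WT arrays (of 7 each), and 4 KO arrays lay below all WT arrays.

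Of 25 tested genes of the interferon and JAK-STAT inputs to PD-L1 and PD-L2, 2 were higher at the unadjusted level and 1 lower, with a median 0.04 below that of all genes. The higher ones were the interferon-gamma receptor chain Ifngr1, with 2.63 (SE 0.93, adjusted p = 0.324), and the interleukin-21 receptor Il21r, with 2.02 (SE 0.68, adjusted p = 0.317). Under the other scalings they lay between 1.30 and 1.77 and between 0.68 and 0.87. The lower gene was the interleukin-10 receptor chain Il10ra, with -1.95 (SE 0.78, adjusted p = 0.348). It was above background on 4 KO arrays and 7 WT arrays, and its difference was -0.68 in set 1 and -2.91 in set 2. Among 16 tested genes of lipid-anchored partners and signalling of CD24, 3 were higher and 0 lower, namely the small lipid-anchored proteins Ly6e (2.31), Cd52 (1.85) and Ly6a (1.51). Like Cd24a they were above background on all 14 arrays, and like it they had smaller differences under the other scalings, 0.97 to 1.15 for Ly6e, 0.52 to 0.56 for Cd52 and 0.17 to 0.25 for Ly6a.

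The genes whose levels followed each tested member most closely over the 14 arrays, out of 20339 compared, are given as a description, since arrays of differing brightness move many genes together. For Cd24a they were the unnamed probe A_55_P1962065, LOC101056029 and Hmgb1, each with Pearson's r = 0.98, and r over the 10 arrays that are not dim was 0.76 to 0.83. For Ctla4 they were Lrrfip1 (0.96), Cetn3 (0.96) and Cul1 (0.95), and for Cd40 Eya3 (0.95), Sec63 (0.90) and NAP111784-1 (0.90). Cd80 was followed by Acbd3 (0.92), Man1b1 (0.92) and Dennd4b (0.91), of which the first pair fell to 0.59 and 0.61 without the dim arrays. Cd274 went with Usp25 (0.90), LOC101056611 (0.89) and Scfd1 (0.89). For Icosl the closest were Kbtbd4 (0.89), Trib3 (0.88) and Zfyve28 (0.88). Pdcd1lg2 was followed by Relb (0.92), which stands on the list of CD40 signalling, Gtf2f2 (0.90) and Prdx5 (0.90). No member was among the closest genes of another.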

How the data were processed

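Agilent Feature Extraction 10.7.3.1 gave the intensity of each spot, with positions on mm9, per the file headers. The deposited files also score each spot 0 or 1 for signal well above background and for outliers. Per the labels, RNA was labelled with Cy3 by a company protocol that is not disclosed. The deposited table of log2 values has the same median, 3.95, in all 14 columns and follows the scanner values (Spearman's rho at least 0.9993 per array), which settles scale and direction. How the authors normalized it is not stated in the sources used.

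Levels are log2 of the processed intensity, less the 75th percentile of the array's non-control spots, without outlier spots and with spots of a probe averaged. Probes well above background on at least 4 of 7 arrays of either genotype (29679) were tested with limma 3.58.1 in R 4.3.3 (lmFit, eBayes, set as covariate, two-sided, Benjamini-Hochberg, threshold 0.05). The fit was also run on simulated data with equal spread in both genotypes and no difference in array brightness. That run therefore does not cover the larger KO spread or the dim KO arrays. An exact permutation test of the genotype labels inside each set (1400 arrangements, unadjusted) was added for each member probe. Slide 1 carried set 1, slide 2 all 4 KO and 2 WT arrays of set 2, and slide 3 its other 2 WT arrays. No spot was saturated (0). Gene symbols are those of the array design. Figures were drawn with matplotlib 3.10.9.

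The members and lists were chosen with earlier results of these data known. Named were all members, the 3 genes of each list with the smallest p, the 3 genes with the highest correlation to each tested member, and Bmi1. Other genes named were chosen after their values were seen. Alternatives were 4 other scalings or sources of values, other filters and blocks, 1 probe per gene, and leaving out each array.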

Additional observations from a re-analysis of the deposited data

Results flagged for a closer look

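Each of the 12 probes was checked in each genotype for an array standing apart, 24 groups of 7 arrays in all, by the gap to the nearest array over the whole range. Chance alone would mark about 1 in 20 groups, or 1.2 here, and 2 were marked. Ctla4 read -1.50 on KO set 2 replicate 2, where the nearest KO array read 3.23 and the KO median was 4.76 (ratio 0.57). That array had the smallest share of probes above background, and Ctla4 was not above background on it. Cd200 read -1.73 on WT set 2 replicate 3, where the nearest WT array read -4.55 and the WT median was -5.35 (ratio 0.644). It was the only WT array on which Cd200 was above background.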

How the results depend on the processing

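The count of members past the adjusted threshold was 0 in every setting run, also without each array in turn (0 to 0). The count of 2 higher at an unadjusted p under 0.05 became 0 with scaling to detected probes and 1 with quantile normalization, normexp, the deposited values, the stricter filter, the slide as a block and when the 4 dim KO arrays were left out, and 3 with no filter on dim probes, which adds the second Icosl probe. It was 0 to 2 without each array in turn, 0 without KO set 2 replicate 1, and the count lower was 0 throughout. Nothing in the labels says that replicate numbers pair the samples. Correlations of same-numbered arrays ran from -0.22 to 0.19 and cannot settle this. With the replicate number as a block the counts were 0 adjusted and 1 unadjusted.

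Of 295 alternative values of single probes, 18 reversed, none of them a call, and the untested Cd86 and Cd200 also turned below 0 under some scalings (lowest -1.24 and -0.18). The Cd80 probe at 38486772 reversed to -0.95 (scaling to detected probes), -0.66 (quantile), -0.61 (normexp), -0.64 (deposited values) and -0.02 (without KO set 2 replicate 2), and Cd274 to -0.23 (scaling to detected probes). Without single arrays the Pdcd1lg2 probe at 29545470 reversed to between 0.01 and 0.44 (0.14 without KO set 1 replicate 2, 0.07 without KO set 1 replicate 3, 0.13 without WT set 1 replicate 2, 0.01 and 0.44 without WT set 2 replicates 3 and 4, 0.38 and 0.40 without KO set 2 replicates 1 and 3) and the probe at 29545473 to 0.18, 0.13 and 0.17 (without WT set 2 replicate 4, KO set 2 replicate 1 and KO set 2 replicate 3). Without KO set 2 replicate 2 the Cd80 probe at 38479343 reversed to 0.10 and Ctla4 to 0.60. Without each array in turn the differences ran from -0.02 to 0.85 and -1.33 to 0.10 for the Cd80 probes at 38486772 and 38479343, -0.84 to 0.44 and -1.10 to 0.18 for the Pdcd1lg2 probes at 29545470 and 29545473, and -0.87 to 0.60 for Ctla4. The cause was not tested. Over all probes, adjusted calls numbered 1 higher and 8 lower, and 1 and 131 with scaling to detected probes, 1 and 25 with quantile normalization or the deposited values, 3 and 31 with normexp, 16 and 51 without KO set 1 replicate 3, and 2 and 35 without KO set 2 replicate 4. Signal over background limits Icosl, Cd86 and Cd200 most.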
